A study of Mus musculus with 2 samples.

Results

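The genes described here are the receptors of the interleukin-6 (IL-6) cytokine family, the Janus kinases (JAKs) attached to them, the transcription factor Stat3 and its feedback inhibitor Socs3. They were chosen by name: Il6st, Il6ra, Osmr, Lifr, Il11ra1, Jak1, Jak2, Tyk2, Stat3 and Socs3, each through microarray probe sets that the platform annotation assigns to that gene alone. Of these 10 genes, 9 were found, with 10 probe sets, among 19938 genes named in this way. Il11ra1, the receptor for interleukin-11, was not analysed here because no probe set, alone or with other genes, carried its name. The expression arrays came from mouse hepatocellular carcinoma tissue of HLF-deficient and of WT (wild-type) genotype, 1 array per genotype. HLF (hepatic leukemia factor) is a PAR bZIP transcription factor of the liver. Animals of both genotypes had received DEN (diethylnitrosamine), a liver carcinogen, so no liver without DEN stands beside them. How Hlf was disrupted, the number, age and sex of the mice, and whether each array held 1 tumour or a pool are not given in the labels.

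IL-6 family cytokines bind a ligand-specific receptor and the shared subunit gp130, the product of Il6st. JAKs bound to the receptor tails then phosphorylate STAT3, which enters the nucleus and switches on target genes, among them Socs3, whose product binds gp130 and the JAKs and shuts the signal off. In liver the pathway is known for the acute phase response and for its part in regeneration and in DEN-induced tumours. It works largely through protein phosphorylation, which an expression array does not measure.

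All values are log2 expression as deposited, and all differences are HLF-deficient minus WT. With 1 array per genotype there is no spread between mice and no test, so precision is limited by how few arrays there are. Differences are described by a rule of size, at least 2-fold or a log2 difference of 1. As a yardstick of technical scatter only, the difference of a single probe set had an SD of 0.24, from the brightest 2 of each gene's probe sets above the floor, over 739 genes with at least that many. The floor of expression, a log2 value of 2.98, is the 95th percentile of chemoreceptor probe sets, which serve as genes that liver does not use. The 14575 genes at or above it on at least 1 array were compared. Hlf itself had 3.79 in the HLF-deficient tumour and 5.13 in the WT tumour, a difference of -1.34, which goes with the labels. The part of Hlf that its probe set reads, relative to the disruption, is not given. All 6 hepatocyte markers were above the floor on both arrays, with differences from -0.15 for Alb (albumin) to 0.32 for Tat.

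The promoter windows of Osmr and Socs3 are shown because Osmr was the one member past 2-fold and Socs3 was the one member whose window held the STAT motif. Both runs are the 250 bases before the RefSeq gene start (GRCm38.p6), read 5′ to 3′ on the gene's own strand, which is the minus strand for both. They lie at chr15:6874314-6874563 for Osmr and at chr11:117969367-117969616 for Socs3. Capitals mark the STAT motif.
Osmr: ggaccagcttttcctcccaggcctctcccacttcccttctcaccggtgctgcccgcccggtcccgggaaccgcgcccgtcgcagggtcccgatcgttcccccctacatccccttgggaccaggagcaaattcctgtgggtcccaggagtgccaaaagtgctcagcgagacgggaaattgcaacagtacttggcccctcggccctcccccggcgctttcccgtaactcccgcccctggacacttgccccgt
Socs3: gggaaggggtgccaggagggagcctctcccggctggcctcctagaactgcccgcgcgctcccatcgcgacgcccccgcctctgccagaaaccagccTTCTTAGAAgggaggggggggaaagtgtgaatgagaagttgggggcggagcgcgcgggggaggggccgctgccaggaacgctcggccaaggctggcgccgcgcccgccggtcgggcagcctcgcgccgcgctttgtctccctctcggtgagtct
The motif searched was TTCNNNGAA, which reads the same on both strands, in windows from 250 bases before to 50 bases after the gene start. It was present in 1 of the 12 windows of the 10 genes, that of Socs3 at positions -154 to -146, and in 8.30% of 32851 windows of all genes. The Osmr window held a match to TGANTCA at positions 4 to 10 after the start. TGANTCA is a loose form of the motif of AP-1 (Jun and Fos dimers). The motif proper has C or G in the middle, where the Osmr match has T. The match lies within chr15:6874294-6874320, minus strand. That stretch is shown with the match in capitals.
Osmr AP-1 match: gccccgtagtTGATTCAtagctggggc
TGANTCA reads the same on both strands and was found in 7.81% of all windows, and in 1 of the 12 member windows. TTANGTAA, a form of the site bound by PAR bZIP factors such as HLF, was searched on both strands and was present in 0 of the 12 member windows and in 2.32% of all windows. TGANTCA and TTANGTAA were added after the expression values were seen. None of the matches shown overlaps a match to another of the 3 motifs. A match describes letters in a window and is not a measured binding site. The member windows were rich in G and C, with a median of 65.3% against 52.7% in all windows.

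Among the receptors, Osmr stood apart from the other 3 that were measured. Osmr (probe set 10427471, chromosome 15) encodes the subunit that joins gp130 to form the oncostatin M receptor. Its level was 6.19 in the HLF-deficient tumour and 4.81 in the WT tumour. Both values were above the floor, and the HLF-deficient one was higher by 1.38, or 2.60-fold. Osmr ranked 91st from the top by difference among the 14575 compared genes, of which 1.5% were at least 2-fold higher and 0.364% at least 2-fold lower. It was the only 1 of the 9 measured members past 2-fold, and none was 2-fold lower. At 4-fold, 0 of the 9 were called in either direction, where 0.185% of all compared genes were higher and 0.0617% lower. For Osmr, the difference was 1.501 with the arrays centred on their medians, 1.26 after quantile normalization and 1.25 after removal of a loess trend.

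The other receptors were close between the tumours. Lifr (probe set 10422822), the receptor that pairs with gp130 for leukemia inhibitory factor, had 8.56 in the HLF-deficient tumour and 8.58 in the WT tumour. Il6ra (probe set 10499655), which binds IL-6 itself, had 6.21 in the HLF-deficient tumour and 6.28 in the WT tumour. Il6st (probe set 10407173) had 7.93 in the HLF-deficient tumour and 7.73 in the WT tumour. These 3 differences, -0.02, -0.07 and 0.19, were each smaller, as deposited, than the technical SD of a probe set. With the arrays centred the differences of Lifr and Il6ra turned to 0.10 and 0.05, and after quantile normalization they were -0.11 and -0.26. On these arrays the shared subunit and the IL-6 and LIF receptors were near level, and the gap lay in the oncostatin M receptor subunit.

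**Figure D1:**
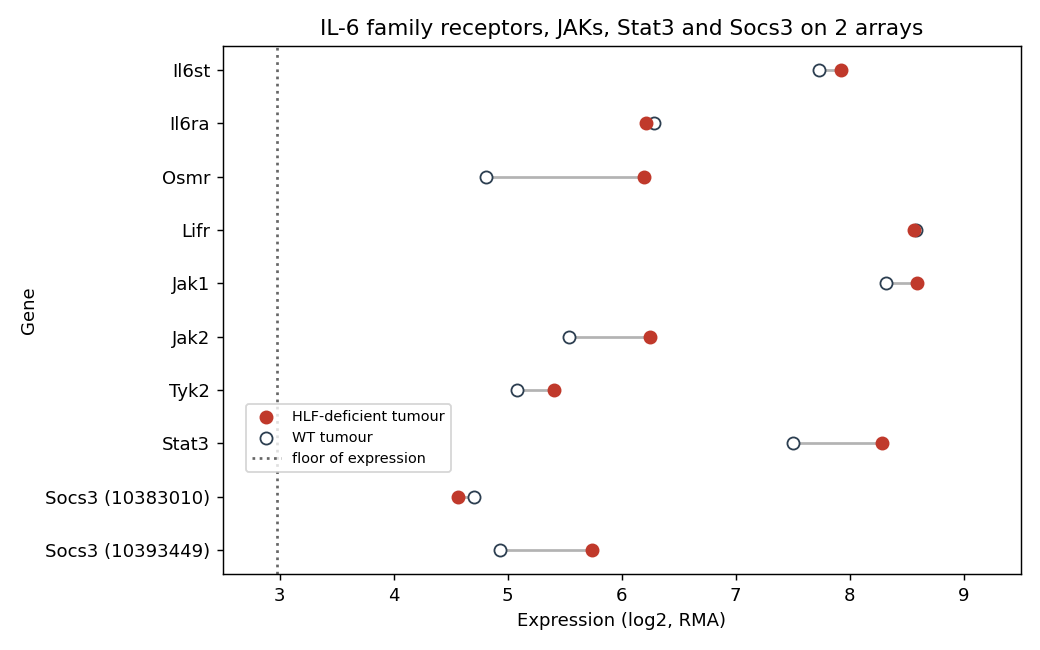
Log2 expression (horizontal axis) of each probe set of the 9 measured genes (rows), filled for the HLF-deficient tumour and open for the WT tumour, with the floor of 2.98 dotted. The gap is widest for Osmr (6.19 and 4.81) and near 0 for Lifr and Il6ra. The scale differs between probe sets, so rows are not to be ranked by level.

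Osmr and Lifr are neighbours on mouse chromosome 15. In the gene order of GRCm38.p6, 0 protein-coding genes lie between them, yet their differences were 1.38 and -0.02, a gap of 1.40. On the other side of Osmr, the next gene Rictor, a subunit of the kinase complex mTORC2, had 6.28 in the HLF-deficient tumour and 5.68 in the WT tumour, a difference of 0.59. Osmr had the largest difference of the 13 compared genes from 6 places before it to 7 places after it, and Dab2 was next at 0.74. Stat3 also has close relatives beside it, Stat5a and Stat5b on chromosome 11, with 0 protein-coding genes between neighbours. Stat3 differed by 0.79, Stat5a by 0.11 (-0.03 after quantile normalization) and Stat5b by 0.61. These neighbours were looked at after their values were known.

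Stat3 and Socs3 came next after Osmr in the size of their difference, and neither reached 2-fold. Stat3 (probe set 10391301), the factor that gp130 activates, had 8.28 in the HLF-deficient tumour and 7.50 in the WT tumour, a difference of 0.79 or 1.72-fold. Its rank was 421st of 14575. Socs3 was read by 2 probe sets that disagreed. The one tied to the RefSeq transcript (10393449) had 5.74 in the HLF-deficient tumour and 4.94 in the WT tumour, a difference of 0.80 or 1.75-fold. The other (10383010), tied to a different GenBank record only, had 4.57 in the HLF-deficient tumour and 4.71 in the WT tumour, a difference of -0.14. The 2 differences lay 0.94 apart, and their mean was 0.33. The direction of Socs3 thus depended on which probe set was read.

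All 3 JAK genes had positive differences, of unequal size, where 58.2% of all compared genes were positive. Jak2 (probe set 10462363), which serves gp130 and also the growth hormone receptor, had 6.25 in the HLF-deficient tumour and 5.53 in the WT tumour, a difference of 0.71 or 1.64-fold. Tyk2 (probe set 10591446), which also serves the interferon receptors, had 5.41 in the HLF-deficient tumour and 5.08 in the WT tumour. Jak1 (probe set 10514668), the main kinase of gp130, had 8.59 in the HLF-deficient tumour and 8.32 in the WT tumour. The differences of Tyk2 and Jak1 were 0.33 and 0.27, little more than the technical SD, and Jak1 was at 0.14 after loess removal.

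Of the 9 measured genes, 7 had a positive difference, where 58.2% of all compared genes did. All 9 were above the floor on both arrays. Their median difference was 0.33, against 0.07 over all compared genes. At a milder rule of 1.5-fold, 4 of the 9 were higher, namely Osmr, Socs3, Stat3 and Jak2, and 0 were lower. Socs3 was counted through its RefSeq probe set, and the mean of its 2 probe sets, 0.33, fell short of 1.5-fold. Over all compared genes 6.37% were at least 1.5-fold higher and 3.11% at least 1.5-fold lower. After quantile normalization or loess removal 3 of the 9 passed 1.5-fold, without Jak2 at 0.53 and 0.56. With the arrays centred, which adds 0.12 to every difference, all 9 were positive and 71.3% of all compared genes were.

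**Figure D2:**
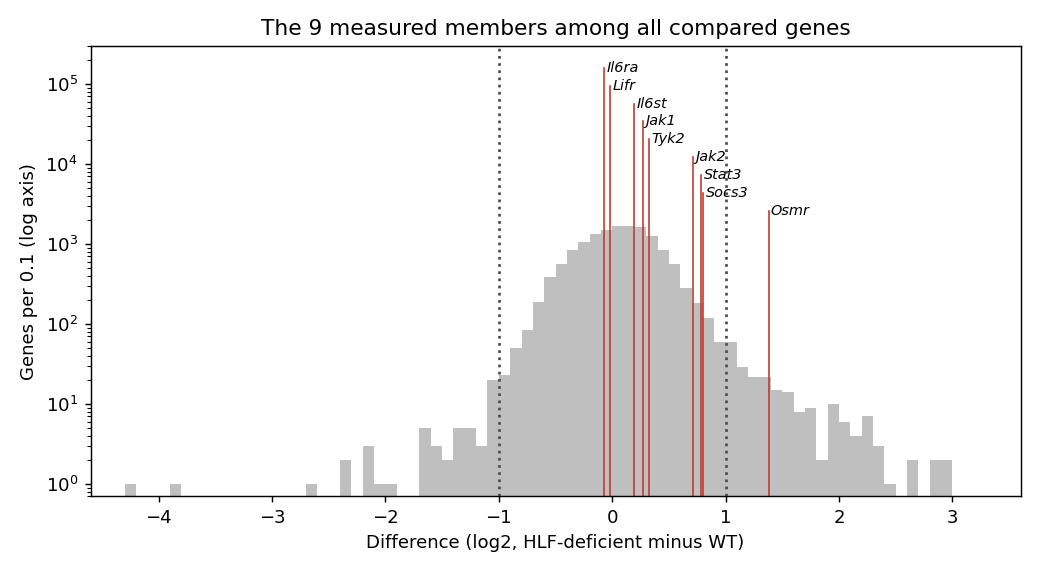
Number of compared genes (vertical log axis) by log2 difference, HLF-deficient minus WT (horizontal axis), with red lines at the 9 measured members and dotted lines at 2-fold. Osmr at 1.38 lies beyond the 2-fold line, Jak2, Stat3 and Socs3 lie between 0.71 and 0.80, and the other 5 lie between -0.07 and 0.33.

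**Figure D3:**
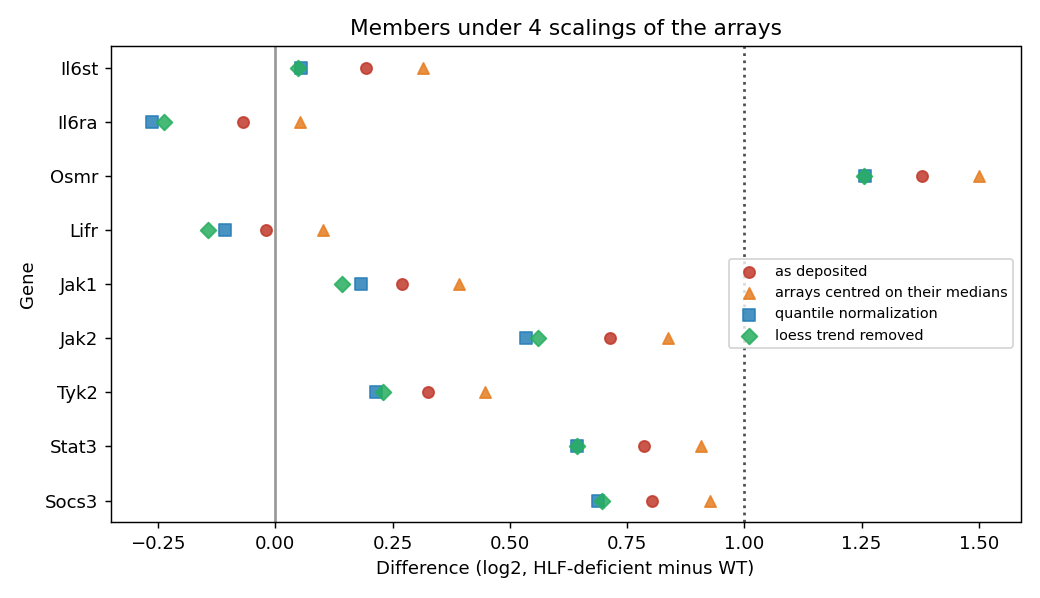
Log2 difference, HLF-deficient minus WT (horizontal axis), of the 9 measured members (rows) with the values as deposited and under 3 other scalings of the arrays. Osmr stays between 1.25 and 1.501, while Lifr and Il6ra lie on either side of 0 depending on the scaling.

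The cytokines that act on these receptors were dim. Il6, Il11 and Osm, the ligands interleukin-6, interleukin-11 and oncostatin M, were below the floor on both arrays, so no difference is given for them. Lif, leukemia inhibitory factor, had 3.37 in the HLF-deficient tumour and 3.18 in the WT tumour. Il27, a subunit of interleukin-27, had 4.04 in the HLF-deficient tumour and 4.68 in the WT tumour, a difference of -0.63. Of 10 cytokine genes, 6 could be compared and 0 passed 2-fold, where 1.5% of all compared genes were 2-fold higher and 0.364% lower. The median difference of the 6 cytokine genes was -0.17. That median was -0.01 after quantile normalization and -0.34 with the floor at the 99th percentile. Cntf was not analysed here, since its probe set also names other genes. Among the remaining receptor subunits, Cntfr and Il27ra were compared and differed by -0.46 and -0.44, with levels of 3.42 and 3.86 in the HLF-deficient tumour and 3.88 and 4.30 in the WT tumour.

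None of the other signal carriers and inhibitors that were compared passed 2-fold. The 4 compared STAT genes outside the members had a median of 0.32, with Stat5b, a factor downstream of growth hormone, highest at 6.63 in the HLF-deficient tumour and 6.02 in the WT tumour. After quantile normalization that median was 0.13. Of the 16 other inhibitors, 0 passed 2-fold, 13 were positive, and the median was 0.24. Over all compared genes 58.2% were positive, 1.5% at least 2-fold higher and 0.364% at least 2-fold lower. After quantile normalization 10 of the 16 and 53.6% of all compared genes were positive, and the median of the 16 was 0.12. Cish, an inhibitor induced by STAT5, was highest with 4.83 in the HLF-deficient tumour and 4.12 in the WT tumour, a difference of 0.71. The window of Cish held 2 STAT motifs, at positions 1 to 9 and 12 to 20 from the gene start, and was the only 1 of 9 inhibitor genes with a window to hold any. They are shown because Cish is the inhibitor with the largest difference, with the motif of each stretch in capitals, on the plus strand at chr9:107296649-107296677 and chr9:107296660-107296688.
Cish first match: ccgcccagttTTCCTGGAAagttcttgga
Cish second match: tcctggaaagTTCTTGGAAatctgtcaaa
Socs1, an inhibitor that binds JAKs directly, was lowest with 4.41 in the HLF-deficient tumour and 4.54 in the WT tumour. Ptpn11, the phosphatase SHP2 that docks on gp130, had 6.73 in the HLF-deficient tumour and 6.74 in the WT tumour, and was named after its values were seen.

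Genes known to be induced by IL-6 and STAT3 differed more, and not all in one direction. The lists of such genes were drawn up with earlier results of these data known, so their medians are not an independent measure of the pathway. Of 12 regulators, 11 were positive and 2 were at least 2-fold higher, with a median of 0.57 against 0.07 over all compared genes. Of all compared genes 58.2% were positive and 1.5% at least 2-fold higher. Fos, an AP-1 subunit, had 6.19 in the HLF-deficient tumour and 3.92 in the WT tumour. Klf6, a zinc finger factor, had 7.05 in the HLF-deficient tumour and 5.95 in the WT tumour, a difference of 1.10 that was 0.91 after quantile normalization. Ccnd1, cyclin D1, was the one below 0, at -0.07, or 0.05 with the arrays centred. Several of these regulators are immediate early genes that other signals also induce.

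Of 17 secreted and membrane proteins, 16 were positive, 5 were at least 2-fold higher and 1 was 2-fold lower, with a median of 0.71. Over all compared genes 58.2% were positive, 1.5% at least 2-fold higher and 0.364% at least 2-fold lower. The list is named for a known inducer of these genes. Whether IL-6, STAT3 or another signal lay behind their differences was not tested. The serum amyloid genes Saa1, Saa2 and Saa3, similar in sequence, were the largest at 2.25, 2.14 and 2.94. Il1rn, the interleukin-1 receptor antagonist, had 6.90 in the HLF-deficient tumour and 5.59 in the WT tumour, a difference of 1.31. Steap4, a metalloreductase, had 9.73 in the HLF-deficient tumour and 8.61 in the WT tumour, a difference of 1.13. Hamp, the iron hormone hepcidin, went the other way, with 9.24 in the HLF-deficient tumour and 10.62 in the WT tumour, or 2.62-fold lower. It shares sequence with Hamp2, which a probe set may also read. The fibrinogen genes Fgb and Fgg were at 0.07 and 0.16, haptoglobin (Hp) was at 0.11, and the 2 probe sets of Fga were at 0.24 and 0.58; these genes were picked once their values were known.

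The STAT motif was present in 1 of 13 windows of the regulators and in 5 of 17 windows of the secreted and membrane proteins, against 8.30% of all windows. It was also present in 3 of 13 windows of the receptors that share JAK1, JAK2 or TYK2 with gp130, described below. The other inhibitors had it in 1 of 10 windows. The cytokines had it in 0 of 8, the remaining receptor subunits in 0 of 7 and the other JAK and STAT genes in 0 of 9.

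**Figure D4:**
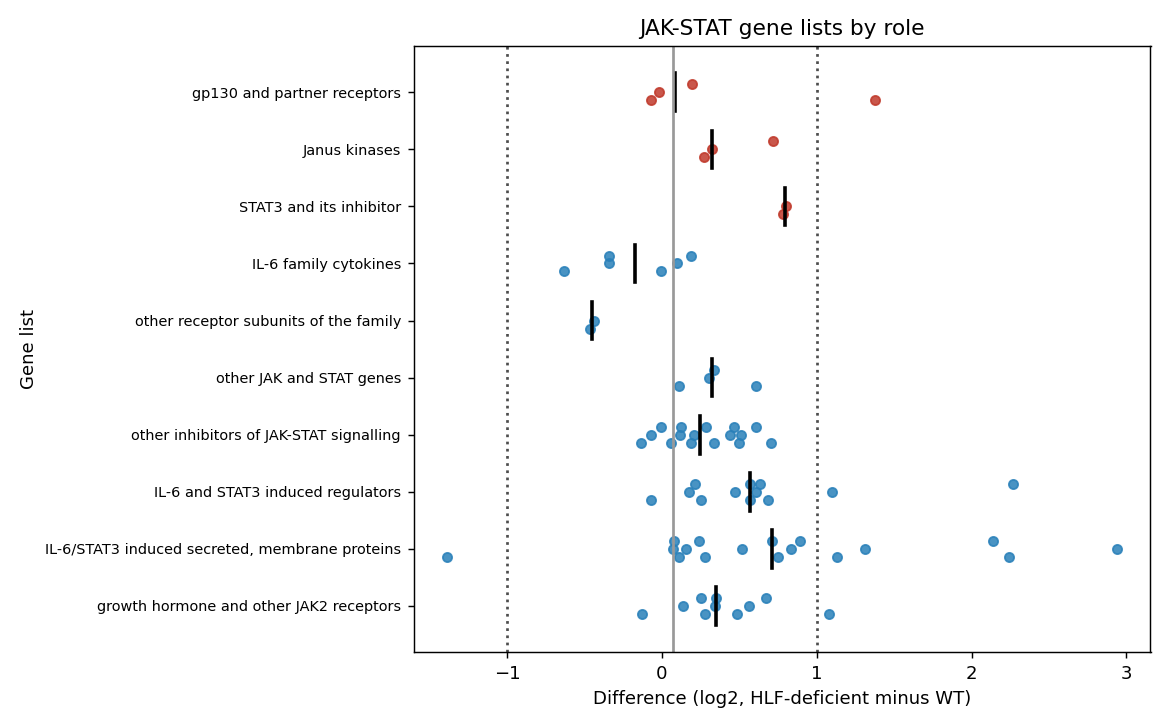
Log2 difference, HLF-deficient minus WT (horizontal axis), of each compared gene in the lists of the pathway (rows), with members in red, other lists in blue, a black bar at each list's median, a grey line at the median of all compared genes (0.07) and dotted lines at 2-fold. The lists of IL-6 and STAT3 induced genes have medians of 0.57 and 0.71, and the cytokine list one of -0.17 (-0.01 after quantile normalization).

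Receptors that share JAK1, JAK2 or TYK2 with gp130 gave a further comparison for the kinases. Of 10 compared, 9 were positive and 1 was at least 2-fold higher, with a median of 0.35. Of all compared genes 58.2% were positive and 1.5% at least 2-fold higher. Il10rb, a subunit of the interleukin-10 receptor, had 6.89 in the HLF-deficient tumour and 5.81 in the WT tumour, a difference of 1.08 that was 0.88 after quantile normalization and 0.91 after loess removal. Ghr, the growth hormone receptor, had 8.69 in the HLF-deficient tumour and 8.55 in the WT tumour, and was named after its values were seen. Epor, the erythropoietin receptor, was lowest at -0.13, or 0.01 after quantile normalization. Lepr was below the floor in the WT tumour, and its difference was at least 0.05; it was named after its values were seen.

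Osmr is also expressed outside hepatocytes, and markers of other cell types differed between the tumours. In such bulk tissue fewer cells of a type and less RNA per cell cannot be told apart. Of 8 endothelial markers, all above the floor, 4 were at least 1.5-fold higher and 1 was 1.5-fold lower. Over all compared genes 6.37% were at least 1.5-fold higher and 3.11% at least 1.5-fold lower. At 2-fold those shares were 1.5% and 0.364%, and 1 of the 8 endothelial markers was higher and 0 were lower. The summed linear endothelial signal was 879 in the HLF-deficient tumour and 689 in the WT tumour, with Lyve1 at 1.21 and Clec4g at -0.76. Such sums add probe sets of unlike scale, so a few genes can carry them. Of 8 macrophage markers, 6 were positive and 2 negative, with a median of 0.22, or 0.10 after quantile normalization. Cd14 and Cd68 were 2-fold higher at 1.86 and 1.53, while the Kupffer cell gene Clec4f was lowest at -0.37. At 1.5-fold 2 of the 8 macrophage markers were higher and 0 lower. The macrophage sums were 584 in the HLF-deficient tumour and 414 in the WT tumour. Of 8 stellate cell and fibroblast markers, 0 passed 2-fold, and 2 were at least 1.5-fold higher and 0 lower. Pdgfrb was highest at 0.73 and Lrat lowest at -0.13. The stellate and fibroblast sums were 704 in the HLF-deficient tumour and 620 in the WT tumour. Hepatocyte markers summed to 18318 in the HLF-deficient tumour and 18397 in the WT tumour. Among lymphocyte, neutrophil and cholangiocyte markers 0 passed 2-fold, and Cd79a, Ms4a1, Ncr1, Ly6g and Cxcr2 were below the floor on both arrays. The part of these cell types in the differences of Osmr, Stat3 and Socs3 was not tested.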

How the data were processed

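The deposited table held log2 values for 35556 probe sets, 1 column per array. Per the submitters' processing notes, the authors used Affymetrix Expression Console and its RMA method, with no version named. The log2 scale was read from the values (0.25 to 12.7), and RMA compresses differences near background. The set of arrays normalized jointly is not stated. Probe sets naming exactly 1 gene (21789) were kept, named from the platform annotation; a gene with several was represented by the one with the highest mean. Sequences are from RefSeq tables of GRCm38.p6; all 10 genes matched. Protein sequences were not used here. Genes at or above the floor of 2.98 (from 1248 chemoreceptor probe sets) on at least 1 array were compared by differences, with Python 3.11.15, pandas 2.3.3 and statsmodels 0.14.6; no test was possible. The counting was tested on simulated data. Alternatives were 3 scalings (centring, quantile, loess with span 0.4), averaging of a gene's probe sets, floors at the 90th and 99th percentile, and rules of 1.5-fold and 4-fold. Members, lists and rules were chosen with earlier results of these data known. Genes named are all members, and per list those past 2-fold and the highest and lowest; others are said to be named after their values were seen or are below the floor.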

Additional observations from a re-analysis of the deposited data

How the results depend on the processing

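No paired analysis was possible because each genotype had 1 array, and no replicate could be left out. Osmr was past 2-fold under every scaling tried. It has 1 probe set, and its values of 6.19 and 4.81 lie above the highest floor tried, 3.78. The probe set rule and the floors therefore could not change its difference. At the 4-fold rule, 0 members passed. The number of members past the rule upwards was 4 at 1.5-fold. At 1.5-fold the counts of higher genes were 1 among the other STAT genes and 2 among the other inhibitors. They were 5 among the induced regulators, 9 among the induced secreted and membrane proteins and 2 among the receptors that share JAKs. There was 1 lower cytokine at 1.5-fold, where 6.37% of all compared genes were higher and 3.11% lower. At 4-fold the counts of higher genes were 1 for the regulators, 3 for the secreted and membrane proteins and 0 for the receptors that share JAKs. The secreted list had 0 lower at 4-fold, where 0.185% of all compared genes were higher and 0.0617% lower. The counts moved because the rule itself moved. After quantile normalization or loess removal the regulators past 2-fold numbered 1, without Klf6, and the receptors that share JAKs numbered 0, without Il10rb. With the mean of its probe sets Socs3 was at 0.33, short of 1.5-fold. All medians of the lists moved by less than 0.24, the technical SD of a single probe set. That SD is a loose yardstick for a median, and some medians changed by a large part of their size. After quantile normalization the other STAT genes went from 0.32 to 0.13 and the other inhibitors from 0.24 to 0.12. The induced regulators went from 0.57 to 0.39, and the secreted and membrane proteins from 0.71 to 0.65. The cytokine median went from -0.17 to -0.34 with the floor at the 99th percentile. With the floor at the 99th percentile the median of all compared genes was 0.13. Probe sets close to the floor of 2.98, as those of the cytokines, limit what could be compared.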

Other observations

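The receptor genes Ifnar2, Il10rb, Ifnar1 and Ifngr2, which encode subunits of the interferon and interleukin-10 receptors, follow each other on chromosome 16 with 0 protein-coding genes between neighbours. Their differences were 0.56, 1.08, 0.34 and 0.35. All 4 were positive, where 58.2% of all compared genes were. Il10rb was the one past 2-fold with the values as deposited, where 1.5% of all compared genes were at least 2-fold higher. Il10rb was at 0.88 after quantile normalization and 0.91 after loess removal. Levels of the 4 in the HLF-deficient tumour were 8.49, 6.89, 6.97 and 7.86, against 7.93, 5.81, 6.63 and 7.51 in the WT tumour. This group was looked at after its values were known.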
